A study of Mus musculus with 8 samples.

Results

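The genes described here are 34 markers of the oligodendrocyte lineage and of myelin, chosen by name from the 54735 genes of the count table and followed from the precursor cell to the myelinating cell. They comprised 2 precursor genes, 4 transcription factors of the lineage, 3 genes of newly formed oligodendrocytes and 25 genes of myelinating oligodendrocytes. RNA-sequencing was performed on bilateral 0.5 mm punches of the ventral tegmental area (VTA) of DBA2/J mice labelled male, aged PD 21 by the labels and PD 22 by the study's methods. In the social stress (SS) group each pup had spent 30 min a day, from PD 14 to 21, with an adult male it did not know, while control (CTR) litters were left unhandled. The samples were 4 CTR and 4 SS mice with 1 library each, named by group and replicate number (1, 2, 3 and 5 in CTR, and 2 to 5 in SS). Where a gene's values are listed library by library, they follow this order. Up to 2 mice of a sex and group could come from 1 litter, and the labels do not give the litter, so littermates may be counted as separate replicates.

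Libraries held 20036086 to 47319997 counts on genes, and all 34 members passed the filter on low counts. Members took 2.14% to 2.96% of all counts in a library, and Mbp alone took 0.876% to 1.36%. Levels are given as CPM, the usual count unit scaled to library size, after normalization between libraries. A count of 0 would allow at most 0.150 CPM in the shallowest library, and every member lay far above it. Markers of the labelled tissue were not level between the groups. The 7 dopamine neuron markers summed to 811 to 1883 CPM in CTR and to 163 to 220 CPM in SS, without overlap. Of the 7, 6 were called lower by edgeR. All of these marker genes are among those the paper reports as downregulated in SS, from these same libraries. Their lower sum is therefore not an independent check of the tissue. The 10 markers of the neighbouring hypothalamic and mammillary region summed to 101 to 187 CPM in CTR and 140 to 205 CPM in SS. None was called by edgeR. DESeq2, the study's tool, called Trh as higher in SS (log2 fold change 5.17, adjusted p = 0.0022). The paper, from these same libraries, also names Trh among its upregulated genes. Otp (at most 1.503 CPM in CTR, 2.20 to 10.3 CPM in SS) and Trh (at most 0.306 CPM in CTR, 0.741 to 4.97 CPM in SS) lay wholly above CTR, and Otp, Trh and Hdc were higher in SS at an unadjusted p under 0.05. These 3 are not typical of the list, whose median log2 fold change was 0.17. Of its 10 markers 8 were fitted above 0 and 2 below, Foxa1 (-0.58) and Barhl1 (-0.22). The part of these differences in the member values was not tested. CTR-5 and SS-5 went against their label as male: they held 14997 and 6551 counts of Xist, against at most 3 in the other 6 libraries, and 3 and 0 counts of 4 Y-linked genes, against 2293 to 7892. Results are therefore given with all 8 libraries and again without these 2. Among the genes with a mean level of 1 to 3 CPM, CTR-1 and CTR-2 had 434 and 354 listed at 0, against 1 to 94 in the other libraries.

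Oligodendrocytes wrap axons of the central nervous system in myelin, a stack of lipid-rich membrane held together by a small set of abundant proteins. They arise from dividing precursors that carry the growth factor receptor encoded by Pdgfra, pass through a short-lived premyelinating stage, and then make myelin proteins and lipids in large amounts. In rodents the third postnatal week falls within the period of active myelination of the brain.

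Genes of myelin proteins led the order of levels. Divided by the length of annotated exons in kilobases, the highest mean CTR level was that of Mbp, myelin basic protein, at 1423 CPM per kb, followed by Mobp at 585, the tight junction protein gene Cldn11 at 497, the membrane proteolipid gene Mal at 437 and Cnp at 400 CPM per kb. Cldn11, Mal and Cnp lay within each other's spread, with coefficients of variation (CV) of 11.1% to 15.2% over the 4 CTR libraries. The precursor genes stood at the other end, Pdgfra at 6.40 and Cspg4 at 2.80 CPM per kb. The annotated exons of Mbp include those of long transcripts that start further upstream, so its level per kilobase is a lower estimate for the classic transcripts.

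With all 8 libraries most myelin transcripts were fitted close to the CTR level in SS mice, and none of the 34 members passed edgeR's test. edgeR's quasi-likelihood test with Benjamini-Hochberg adjustment over 16538 genes called 0 of 34 members. Over all genes the same test called 14, or 0.0847%, all of them lower in SS (0% higher). At an unadjusted p under 0.05, 3 members were lower in SS and 1 was higher, against 3.7% and 2.85% of all genes tested. DESeq2, the study's tool, called 1 member, Car2, as lower, against 0.31% of all genes. With all 8 libraries the changes could be bounded. The 95% interval of the SS-to-CTR ratio lay within 2-fold either way in 34 of 34 members, against 64.7% of all genes. It lay within 1.5-fold in 27 of 34, against 40.9%. Without CTR-5 and SS-5, 13 members were lower by edgeR at an unadjusted p under 0.05 and 0 higher, against 5.54% and 5.06%. Fitted levels were then 81.9% of CTR in Mbp, 85.0% in Mobp, 92.6% in Mag and 71.4% in Car2, and 6 members were fitted above 0. In that fit 95% intervals of the log2 fold change passed 2-fold in Trf (-1.40 to 0.32) and Pdgfra (-0.04 to 1.04). Without CTR-5 alone, that of Trf reached -1.18. Bounds are narrow in abundant genes, and the median standard error was 0.12 on the log2 scale in the members and 0.21 over all genes. Bulk tissue gives RNA per punch, so fewer oligodendrocytes and less RNA per oligodendrocyte cannot be told apart.

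Most fitted changes were small and negative. A value below 0 was fitted for 28 of 34 members, against 49.4% of all genes. The median log2 fold change was -0.11 over the members and 0.00 over all genes tested. By stage the medians were 0.24 in the precursor genes, -0.16 in the lineage transcription factors, -0.08 in the newly formed stage and -0.12 in the myelinating stage. These medians depended on single libraries. Without CTR-1 they were 0.13, -0.08, -0.05 and -0.04 in the same order, and -0.05 over all members. Without CTR-5 the lineage median was -0.28, and without SS-3 the myelinating median was -0.07. The median over all members was -0.07 without CTR-3 and -0.07 without SS-3. The newly formed median, over 3 genes, moved by more than 1.5 times with any library left out, from -0.18 without SS-4 to 0.01 without CTR-3. All members were read from the same 8 libraries, so they are not independent of each other.

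**Figure D1:**
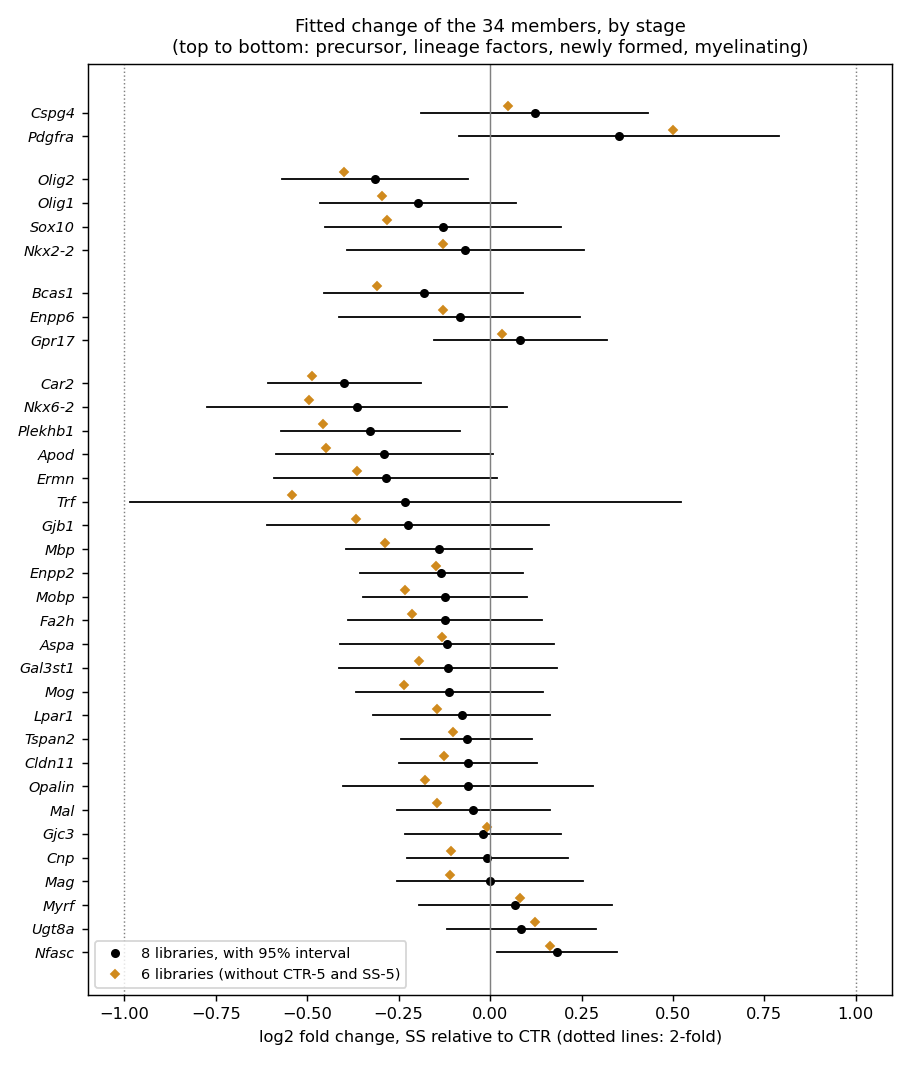
Fitted log2 fold change of each member, SS relative to CTR, with its 95% interval over 8 libraries (black) and the value over 6 libraries (orange), by stage from top to bottom. Points of the myelinating stage ran from -0.40 (Car2) to 0.18 (Nfasc), and every interval lay between the dotted lines that mark a 2-fold change.

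The precursor genes were the ones with positive fitted values in both members. Pdgfra (chr5:75152292-75198215, GRCm38), the receptor for platelet-derived growth factor AA that keeps precursors dividing, was measured at 36.3, 77.4, 66.1 and 76.8 CPM in CTR mice and at 85.2, 81.1, 88.2 and 73.3 CPM in SS mice. CTR-1 was far below the other 7 libraries, and SS-5 lay below 2 of the CTR libraries. The fitted log2 fold change was 0.35 (SE 0.20, adjusted p = 0.77 by edgeR's quasi-likelihood test). Without CTR-1 it was 0.16, and without CTR-5 and SS-5 it was 0.50 (adjusted p = 0.51). Cspg4, which encodes the NG2 surface proteoglycan of precursors and also of pericytes, stood at 33.4 ± 3.63 CPM in CTR mice and 36.4 ± 4.90 CPM in SS mice (mean ± SD, n = 4 each, as throughout). The summed level of both genes was 67.7 to 110 CPM in CTR and 113 to 127 CPM in SS, without overlap. That separation rested on a narrow gap between CTR-5 and SS-3, at 110.5 and 112.9 CPM.

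Of the 12 further precursor genes, such as Ptprz1 (the most abundant), Tnr and Vcan, none was called and none had an unadjusted p under 0.05. Their median log2 fold change was 0.01, with 8 above 0 and 4 below. Tnr, which encodes the matrix protein tenascin-R, had the largest value at 0.32 (SE 0.16), with 182 CPM in CTR and 228 CPM in SS. CTR-1 was also the lowest library in the summed level of these genes, at 704 CPM against 815 to 888 CPM in the other CTR libraries. In pericyte markers, summed levels were 187 to 250 CPM in CTR and 224 to 262 CPM in SS. The part of CTR-1 or of pericytes in the precursor values was not tested.

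The transcription factors that specify and maintain the lineage were all fitted below 0. Olig2 (chr16:91225457-91228677), the basic helix-loop-helix factor that specifies oligodendrocyte precursors, had 84.8, 102.2, 100.2 and 89.3 CPM in CTR mice and 72.8, 64.9, 80.3 and 85.0 CPM in SS mice. Only SS-5 reached into the CTR range, just above the value of CTR-1. The log2 fold change was -0.31 (SE 0.12, unadjusted p = 0.020, adjusted p = 0.75), and the exact permutation p was 0.057. Its paralog Olig1 had 414 ± 77.9 CPM in CTR and 361 ± 17.9 CPM in SS. Sox10, which switches on myelin genes, had 136 ± 30.5 and 124 ± 7.38 CPM, and Nkx2-2, which times differentiation, had 20.7 ± 1.46 and 19.7 ± 1.94 CPM. In these 3 factors the groups overlapped, and CTR-5 was the lowest CTR library. Without CTR-5 and SS-5 the stage's median was -0.29, and 2 of the 4, Olig1 and Olig2, had an unadjusted p under 0.05, with an adjusted p of 0.37 and 0.35.

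Newly formed oligodendrocytes were represented by 3 genes whose values overlapped between groups. Bcas1, a marker of cells that have just begun to myelinate, was measured at 558, 458, 580.2 and 381 CPM in the 4 CTR libraries and at 393, 459.5, 435 and 456 CPM in the 4 SS libraries. CTR-5 was the lowest of the 8, and CTR-1 and CTR-3 were the highest. Enpp6, a choline phosphodiesterase of premyelinating cells, had 53.6 ± 8.90 CPM in CTR and 50.6 ± 7.72 CPM in SS. Gpr17, a receptor that marks the same stage and is switched off before maturation, was the 1 gene of the 3 fitted above 0, with 241 ± 30.4 and 255 ± 23.1 CPM. Its exons overlap those of Lims2 on the opposite strand over 188 bp, and the sources used here do not say whether reads were counted by strand.

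Among 10 further genes of this stage none was called and none had an unadjusted p under 0.05. Fyn, a kinase that acts in the start of myelination and the most abundant of them, had 175 ± 26.6 CPM in CTR and 191 ± 17.1 CPM in SS. Tcf7l2, a Wnt pathway factor that is also expressed by thalamic neurons, had the lowest value at -0.58 (SE 0.27, unadjusted p = 0.055). The other members of the list ran from -0.11 to 0.30, and the list's median was 0.15.

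**Figure D2:**
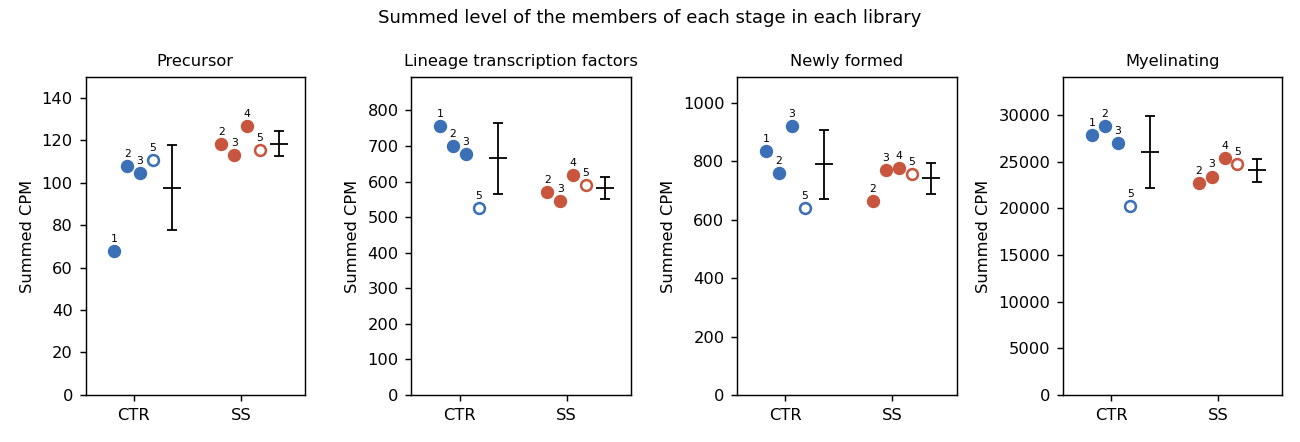
Summed CPM of the members of each stage in each library, with the replicate number above each point, the group mean ± SD at its right, and open points for CTR-5 and SS-5. In the myelinating stage CTR-5 was the lowest of the 8 libraries at 20286 CPM and the other 3 CTR libraries were the highest, at 27037 to 28853 CPM.

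In the myelinating stage 22 of 25 genes were fitted below 0, none was called by edgeR, and the summed level was 26004 ± 3884 CPM in CTR and 24050 ± 1209 CPM in SS. The 10 genes of myelin structure had a median of -0.06 on the log2 scale. Mbp, which seals the cytoplasmic faces of the myelin membrane, had 12978, 13928, 12479 and 8826 CPM in the CTR libraries and 10011, 10471, 11769 and 11495 CPM in the SS libraries. All SS values fell between CTR-5 and the other 3 CTR values. The fitted SS level was 90.7% of CTR, with an interval of 76.0% to 108%. Mobp, a basic protein of compact myelin, followed Mbp closely: the ratio of Mbp to Mobp was 2.80 to 3.23 in CTR and 2.88 to 3.08 in SS.

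Mag, the adhesion protein of the innermost wrap, had 899 ± 165 CPM in CTR and 899 ± 43.6 CPM in SS, a ratio of 100% with an interval of 83.8% to 119%. Cnp, which keeps cytoplasmic channels in myelin open, had 1456 ± 222 and 1448 ± 49.8 CPM, and shares 154 bp of exon with Dnajc7 on the other strand. Mog, on the outermost surface, had 355 ± 60.2 and 328 ± 17.4 CPM. The fitted ratios of Cldn11, which forms the tight junctions of the sheath, Mal, Opalin and Tspan2 ran from 95.6% to 96.9% of CTR. Ermn, an actin-binding protein of late myelination, was the lowest of the 10 structural genes at 82.1% of CTR, with 228, 314, 261 and 186 CPM in the CTR libraries and 209, 218, 197 and 187 CPM in the SS libraries.

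The enzymes that make myelin lipids did not pass the test in either direction. Ugt8a, which makes galactosylceramide, had 342 ± 31.5 CPM in CTR and 363 ± 28.6 CPM in SS. Gal3st1, which adds the sulfate that turns it into sulfatide, had 55.6 ± 9.13 and 51.3 ± 2.94 CPM. Fa2h, which hydroxylates the fatty acids of both lipids, had 293 ± 47.2 and 269 ± 24.3 CPM. Enpp2, which encodes autotaxin, the enzyme that makes lysophosphatidic acid, had 532 ± 77.8 and 485 ± 8.54 CPM, and Lpar1, a receptor for that lipid, had 152 ± 21.9 and 144 ± 6.36 CPM. Enpp2 is also an abundant gene of the choroid plexus, and CTR-5 held markers of that tissue, as given below. Its fitted log2 fold change was -0.13 with all libraries and -0.15 without CTR-5 and SS-5. Cholesterol is the other main lipid of myelin. Of 17 genes of its synthesis and uptake 16 were fitted above 0, against 8365 of all 16538 genes tested. None was called, and none had an unadjusted p under 0.05. These genes were read from the same 8 libraries, so they are not independent of each other. Their median log2 fold change was 0.07, and Hmgcs1, the most abundant, had 501 ± 67.1 CPM in CTR and 538 ± 20.5 CPM in SS.

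Car2 was the member with the smallest p. It encodes carbonic anhydrase 2, a cytosolic enzyme abundant in oligodendrocytes that interconverts carbon dioxide and bicarbonate, and lies at chr3:14886273-14900770 on the plus strand (GRCm38). Its level was 486, 545, 533 and 408 CPM in the CTR libraries and 383, 357, 376 and 380.4 CPM in the SS libraries. The 4 SS values were all below the 4 CTR values and lay close together. No other member had groups without overlap in this direction, against 2.21% of all genes, and no member had the SS libraries wholly above, against 2.47%. The group values were 493 ± 61.9 CPM in CTR and 374 ± 11.5 CPM in SS, a fitted ratio of 75.9% with an interval of 65.6% to 87.8%. The log2 fold change was -0.40 (SE 0.10, unadjusted p = 0.0014), the adjusted p was 0.43 by edgeR's quasi-likelihood test and 0.037 by DESeq2, and the exact permutation p was 0.029, the smallest that 4 against 4 libraries can give. Without CTR-5 edgeR's adjusted p was 0.048, with 0.0946% of all genes called lower. Car2 is in the study's own list of changed genes, made from these libraries, so its call by DESeq2 is not independent evidence.

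**Figure D3:**
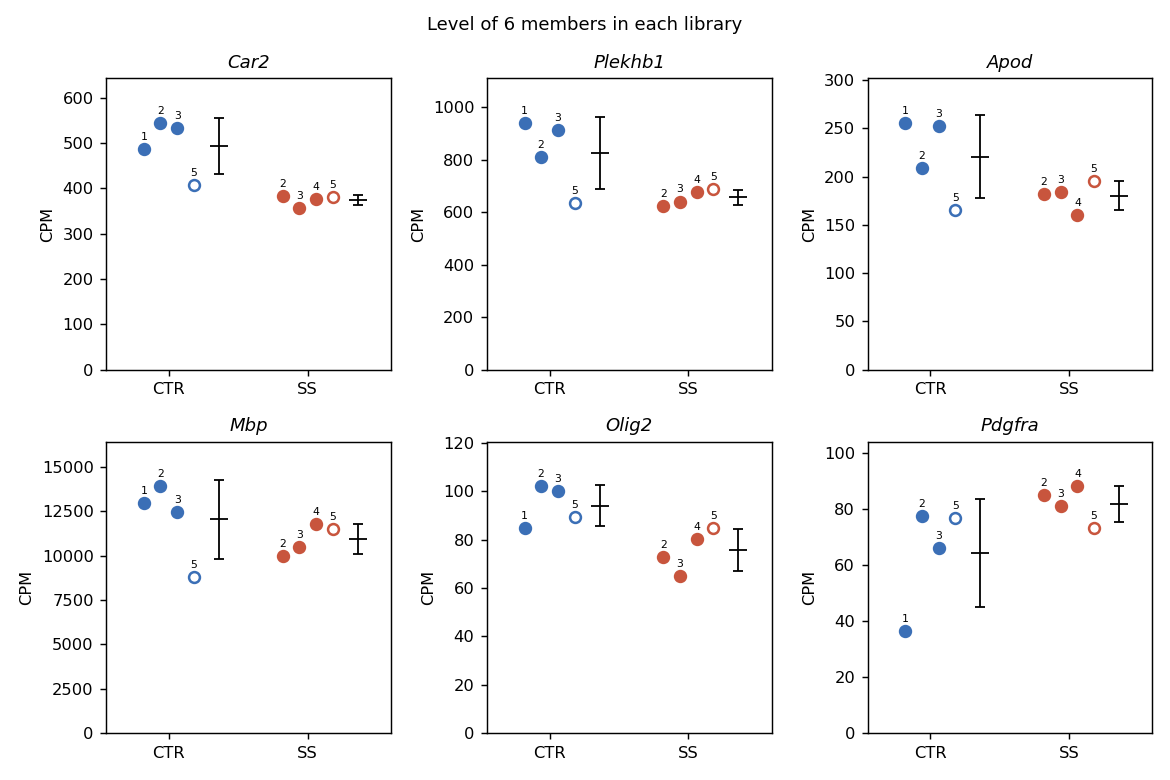
CPM of 6 members in each library, with the replicate number above each point, the group mean ± SD at its right, and open points for CTR-5 and SS-5. For Car2 the SS libraries (357 to 383 CPM) all lay below the CTR libraries (408 to 545 CPM), while for Mbp CTR-5 lay below all SS points and for Plekhb1 among them.

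Plekhb1 (chr7:100642892-100662414, minus strand), a membrane-associated protein with a pleckstrin homology domain, had 940.0, 809, 913 and 635 CPM in the CTR libraries and 625, 640.2, 675 and 687 CPM in the SS libraries. All SS values were below those of the other 3 CTR libraries, and CTR-5 lay inside the SS range. The log2 fold change was -0.33 (SE 0.11, unadjusted p = 0.013, adjusted p = 0.74). Apod (chr16:31296192-31314808, minus strand), a lipid-binding protein secreted by oligodendrocytes and other glia, had 256, 209, 253 and 165 CPM in CTR and 182, 184, 159.8 and 196 CPM in SS, with the same arrangement of CTR-5 among the SS values. Its log2 fold change was -0.29 (SE 0.14, unadjusted p = 0.055).

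The promoters of 3 members that DESeq2 called only with CTR-5, or CTR-5 and SS-5, left out are shown: Ermn, Apod and Plekhb1. Opalin is shown because a single window of it held all the kinds of letters searched. The choice is therefore not a sample of the members. Nkx6-2 and Olig2 had lower fitted values than Apod and Ermn, had none of these letters in their windows and are not shown. Each is the 250 bases before the RefSeq start on GRCm38.p6, read 5′ to 3′ on the minus strand, and capitals mark 2 kinds of letters: ACAAAG, the core read by SOX factors such as Sox10, and CATCTG or CAGCTG, E-boxes read by the Olig factors, each on either strand. Windows were found for 24 of the 34 members.

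Ermn, chr2:58052865-58053114: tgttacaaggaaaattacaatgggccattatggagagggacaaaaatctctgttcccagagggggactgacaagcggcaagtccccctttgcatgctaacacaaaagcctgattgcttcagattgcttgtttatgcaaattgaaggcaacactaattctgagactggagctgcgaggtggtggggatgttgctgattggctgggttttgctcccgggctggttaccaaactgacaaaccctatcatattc
Apod, chr16:31314809-31315058: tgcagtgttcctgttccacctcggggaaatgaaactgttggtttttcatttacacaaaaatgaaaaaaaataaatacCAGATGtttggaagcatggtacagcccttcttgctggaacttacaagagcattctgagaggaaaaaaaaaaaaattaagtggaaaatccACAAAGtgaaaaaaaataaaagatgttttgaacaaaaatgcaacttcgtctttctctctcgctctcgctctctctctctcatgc
Plekhb1, chr7:100662395-100662644: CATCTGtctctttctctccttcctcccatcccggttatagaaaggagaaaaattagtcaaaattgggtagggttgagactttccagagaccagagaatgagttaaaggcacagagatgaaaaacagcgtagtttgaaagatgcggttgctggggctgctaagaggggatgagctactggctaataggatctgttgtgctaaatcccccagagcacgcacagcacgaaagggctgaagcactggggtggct
Opalin, chr19:41077114-41077363: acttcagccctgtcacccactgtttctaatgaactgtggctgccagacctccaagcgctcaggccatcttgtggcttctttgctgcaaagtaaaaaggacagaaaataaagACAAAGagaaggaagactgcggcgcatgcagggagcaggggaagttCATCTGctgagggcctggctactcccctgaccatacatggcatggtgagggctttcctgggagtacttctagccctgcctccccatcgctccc

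Ermn had neither kind of letters here, Plekhb1 had the E-box at its first base, and Apod and Opalin had both. In windows of 300 bases (50 of them after the start) the SOX core was in 12 of 36 member windows and in 18.7% of all 32851 windows. The E-boxes were in 10 of 36 and in 30.6%, and CTGGCAC or CTGGTAC, letters read by the myelin factor Myrf, were in 6 of 36 and in 7.1%. Opalin had all 3 within a single window, and Lpar1 had all 3 spread over its 3 windows. Several windows belong to 1 gene, and a match is a description of letters and no evidence of binding.

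The remaining members of the stage fell into small groups. Trf, which encodes the iron carrier transferrin, was listed at 28.4, 9.70, 13.2 and 8.66 CPM in CTR and at 9.42, 12.7, 13.1 and 15.7 CPM in SS. CTR-1 stood well above the rest, and the CV over the CTR libraries was 60.9%. The annotation holds a second gene, Gm20425, over 2108 bp of Trf's exons on the same strand, with 0 counts in all libraries, so its level is uncertain. Aspa, which breaks down N-acetylaspartate for lipid synthesis, had 49.4 ± 6.63 CPM in CTR and 45.5 ± 4.86 CPM in SS. The connexins differed in spread: Gjc3 had 143 ± 10.3 and 141 ± 11.9 CPM, and Gjb1 had 62.5 ± 16.9 and 53.4 ± 2.33 CPM.

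Myrf, the factor that drives myelin gene transcription, had 164 ± 20.4 CPM in CTR and 172 ± 23.8 CPM in SS. Nkx6-2, a homeodomain factor of myelinating cells, had 80.3, 48.8, 48.1 and 40.5 CPM in CTR and 41.8, 43.5, 40.4 and 43.2 CPM in SS. CTR-1 was far the highest, and CTR-2 and CTR-3 also lay above every SS value. The fitted value of Nkx6-2 was -0.36 (SE 0.19) with all libraries, -0.11 without CTR-1 and -0.49 without CTR-5 and SS-5. Its exons overlap those of Inpp5a on the opposite strand. Nfasc (chr1:132564690-132741797, minus strand) was the only member higher in SS at an unadjusted p under 0.05. It encodes neurofascin, which has a glial form at the paranode and a neuronal form at the node and axon initial segment, and gene counts do not separate them. It had 612, 675, 703 and 628 CPM in CTR and 702, 736, 793 and 741 CPM in SS, with SS-2 just inside the CTR range (log2 fold change 0.18, SE 0.08, unadjusted p = 0.033, adjusted p = 0.75). Markers of all neurons summed to 3472 to 3974 CPM in CTR and 3275 to 3390 CPM in SS.

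Of 29 further genes of myelinating cells none was called by edgeR. At an unadjusted p under 0.05, Evi2a (log2 fold change -0.46, SE 0.13) and Qdpr (-0.33, SE 0.14), which regenerates tetrahydrobiopterin, were lower in SS. Elovl7 (0.28, SE 0.12), an enzyme that lengthens fatty acids, was higher. The list's median was -0.08, with 20 fitted below 0, and Tppp, a tubulin-binding protein and the most abundant, had 769 ± 62.9 CPM in CTR and 778 ± 28.5 CPM in SS.

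CTR-5 lay below the other CTR libraries in most members. It was the lowest CTR library in 19 of 25 myelinating genes and in 25 of all 34 members. Leaving it out therefore raises the CTR mean of most members by construction. Without CTR-5 and SS-5, edgeR called 0 of 34 members (0.0546% of all genes called lower), and 28 of 34 were fitted below 0, against 48.5%. At an unadjusted p under 0.05, 13 members were lower and 0 higher in SS, against 5.54% and 5.06% of all genes. The SS libraries lay wholly below the CTR libraries in 13 members, against 9.34%, and wholly above in 1, Pdgfra, against 10.7%. The 13 were Mbp, Mobp, Mog, Mal, Ermn, Car2, Plekhb1, Apod, Olig2, Bcas1, Nkx6-2, Gal3st1 and Gjb1. Their fitted levels were 71.0% (Nkx6-2) to 90.3% (Mal) of CTR. With these 6 libraries DESeq2 called 4 of the 33 members it gave an adjusted p, against 2.76% of genes called lower: Car2 (-0.49, SE 0.08, adjusted p = 2.18e-06), Plekhb1 (-0.46, SE 0.09, adjusted p = 4.55e-05), Apod (-0.45, SE 0.12, adjusted p = 0.0096) and Mbp (-0.29, SE 0.09, adjusted p = 0.037). Without CTR-5 alone, 15 members had an unadjusted p under 0.05 as lower by edgeR, against 6.59%, and 1 was called, Car2.

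**Figure D4:**
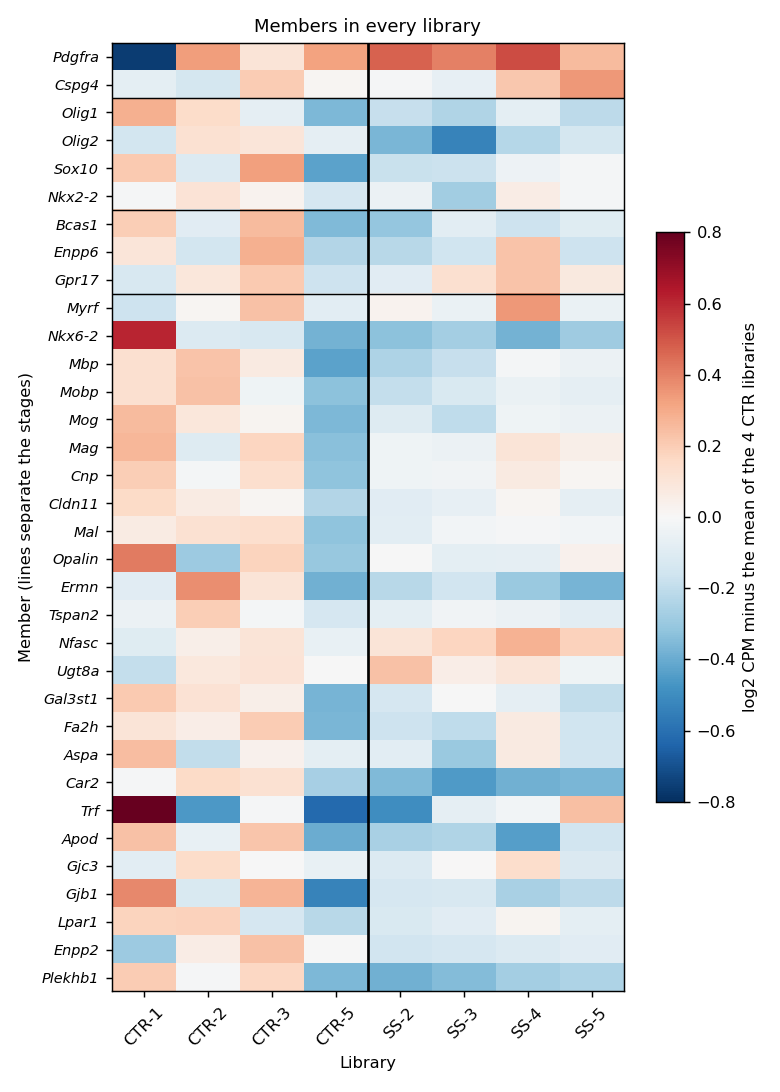
Level of each member in each library as log2 CPM minus the mean of the 4 CTR libraries, on a colour scale that ends at 0.8 either way, with lines between the stages. The column of CTR-5 is mostly blue in the myelinating genes, of which it was the lowest CTR library in 19 of 25, and CTR-1 stands out as low in Pdgfra and high in Trf and Nkx6-2.

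CTR-5 also differed from the other libraries in markers of other cells. Choroid plexus markers summed to 257 CPM in CTR-5, mostly Ttr (234 CPM), and to 9.30 to 28.9 CPM in the other 7 libraries. Of the 2 defining genes below the filter, Folr1 had 62 counts in CTR-5 and 0 elsewhere, and Kcnj13 had 42 counts in CTR-5, 13 in SS-3 and 0 elsewhere. CTR-5 also had the highest summed levels of astrocyte markers (3236 CPM, against 2134 to 2957 CPM) and of neuron markers, and the lowest of hypothalamic markers (101 CPM, against 140 to 205 CPM). Set against the neuron markers, the summed myelinating genes stood at 5.11 in CTR-5, 7.58 to 8.02 in the other CTR libraries and 6.70 to 7.75 in SS. This reference was itself lower in SS, at 3275 to 3390 CPM against 3472 to 3974 CPM in CTR. The part of these differences in the member values was not tested. Schwann cell markers were near 0 in every library (1.78 to 4.65 CPM summed over 4 genes, with Pmp2 at 0 in all but SS-3). Microglial markers summed to 256 to 357 CPM in CTR and 244 to 278 CPM in SS, endothelial markers to 281 to 326 and 277 to 328 CPM, and meningeal fibroblast markers to 21.5 to 36.3 and 30.6 to 38.9 CPM.

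The balance between stages was steadier within SS than within CTR. The summed myelinating genes stood at 411, 268, 259 and 184 times the summed precursor genes in the CTR libraries, and at 192, 207, 200.1 and 214 times in the SS libraries. The SS values lay close together, and only CTR-5, at 184, lay below them. Without CTR-5 and SS-5 the groups did not overlap, with ratios of 259 to 411 in CTR and 192 to 207 in SS. With those libraries left out, 20.1% of all genes tested had groups without overlap. The ratio divides by only 2 precursor genes, in whose sum CTR-1 was far the lowest at 67.7 CPM. The 12 further precursor genes had a median log2 fold change of 0.01 with all libraries. The ratio of myelinating to newly formed genes was 29.3 to 37.9 in CTR and 30.4 to 34.2 in SS.

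The spread between libraries differed in the same way for single genes. The median CV of the members was 16.2% in CTR and 5.84% in SS. It was larger in CTR in 29 of 34 members, against 82.9% of all genes tested, whose medians were 25.5% and 13.3%. The wider CTR spread was about as common over all genes as among the members. Mal, Tspan2 and Enpp2 had CVs of 1.74% to 2.37% in SS and of 10.03% to 14.6% in CTR. Cspg4, Olig2, Nkx2-2, Myrf and Gjc3 were the 5 members with the larger CV in SS.

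**Figure D5:**
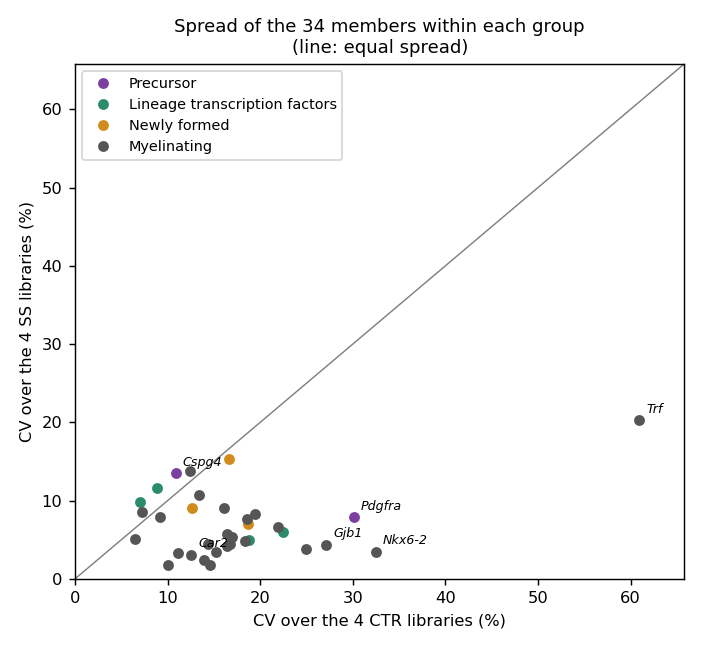
Coefficient of variation of each member over the 4 SS libraries against that over the 4 CTR libraries, both in percent, coloured by stage, with the line of equal spread. Of the 34 points 29 lie below the line, with Trf farthest to the right at 60.9% in CTR.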

How the data were processed

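Bilateral VTA punches of 4 CTR and 4 SS mice were sequenced, 1 library per mouse, and each library was grouped by its label. Single-end reads had been trimmed (Cutadapt), mapped to mm10 (STAR) and assigned to Ensembl genes (htseq-count) by the authors, who deposited whole counts without normalization. Tool versions and the strand setting are not given in the sources used here. Library totals were 20036086 to 47319997 counts, and the limits for a count of 0 (3 counts) cover counting error only.

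In R 4.3.3 with edgeR 4.0.16, filterByExpr (minimum count 10, minimum total 15) left 16538 genes, which were normalized with TMM and compared with glmQLFit and glmQLFTest with group as the only term, with Benjamini-Hochberg adjustment at 0.05. CPM are TMM-normalized, and log2 CPM used a prior count of 2. Exact two-sided permutation tests covered 70 assignments, with 0.029 the smallest p. Intervals are the fitted log2 fold change with its standard error and 95% t limits. Fits were tested on simulated data. Alternatives were DESeq2 1.42.0, voom of limma 3.58.1, edgeR's bias-adjusted estimate, other normalizations, no filter, libraries left out and the replicate number as a block. DESeq2 without CTR-5, and without CTR-5 and SS-5, was added after the data were seen.

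The members and lists were chosen with earlier results of these data known. All members are named, with the most abundant gene of a lineage list and genes whose values stand beside a member's result. Tnr, Vcan, Tcf7l2, Evi2a, Qdpr, Elovl7, Otp, Trh, Hdc, Foxa1 and Barhl1 were named after their values were seen. Positions and exon lengths are from GENCODE M21 (GRCm38), and promoters from RefSeq.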

Additional observations from a re-analysis of the deposited data

Results flagged for a closer look

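In 6 of the 104 groups of 4 libraries tested, 1 library lay far from the other 3 by Dixon's ratio (the gap to the nearest library over the range, 5% level), and chance alone would give about 5.2. Among single members they were Enpp6 in SS (ratio 0.878), with SS-4 at 62.1 CPM and the next library at 47.4 CPM, and Fa2h in SS (0.853), with SS-4 at 305 CPM and the next at 260.4 CPM. Mal in SS (0.841) had SS-2 at 1136 CPM and the next at 1187 CPM, a gap that is small beside the level. In the summed precursor genes of CTR (0.861) CTR-1 was at 67.7 CPM and the next at 105 CPM. In the summed endothelial markers of SS (0.897) SS-4 was at 328 CPM and the next at 282 CPM. In the summed choroid plexus markers of CTR (0.921) CTR-5 was at 257 CPM and the next at 28.9 CPM.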

How the results depend on the processing

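The summed levels with DESeq2's size factors, and the stage medians under every alternative, moved by less than 1 SD between replicates, which is wide beside the medians. With 1 library left out the medians ran from 0.13 to 0.29 in the precursor genes, -0.28 to -0.08 in the lineage factors, -0.18 to 0.01 in the newly formed stage, -0.15 to -0.04 in the myelinating stage and -0.16 to -0.05 over all members. Of the 34 members 25 kept the sign of their fitted change in all 18 settings. The count of genes called was 14 with edgeR and 81 with DESeq2, 27 with the bias-adjusted estimate, 22 without a filter, 9 without CTR-5 and SS-5, and 6 to 19 with 1 library left out. Of the members, all in the myelinating stage, DESeq2 called 1, and edgeR called 0 to 1 with 1 library left out, the 1 being Car2 without CTR-5. DESeq2 called 399 genes (4.72% of those with an adjusted p) and 4 members without CTR-5 and SS-5. Without CTR-5 alone it called 684 genes (3.55%) and 5 members (Mbp, Ermn, Car2, Apod and Plekhb1). Both settings were chosen after seeing the data. Members whose groups did not overlap numbered 1 with edgeR, 2 with DESeq2, its size factors, upper-quartile normalization or no filter, 14 without CTR-5 and SS-5 (14 with DESeq2), 13 with DESeq2 without CTR-5, and 2 to 13 with 1 library left out (13 without CTR-5, 4 without CTR-1 or SS-5, 2 otherwise). Over all genes tested the groups did not overlap, in either direction, in 4.67% with edgeR, 4.72% with DESeq2's size factors, 3.29% without a filter, 20.1% without CTR-5 and SS-5, 15% without CTR-5, and 6.37% to 8.74% without any other library. Fewer libraries make a lack of overlap more common, and no other cause was tested. Deviations of same-numbered libraries correlated at -0.01, -0.01 and 0.06, and those of differently numbered libraries at -0.09 to 0.04. The highest value was that of CTR-5 with SS-5, the 2 libraries against their label. With only 3 shared numbers this cannot settle whether the numbers pair the samples. With the replicate block 9 genes and 0 members were called. With 4 libraries a group, and 2 of them against their label, small changes could not be told from 0. The intervals given are not adjusted for the number of genes tested, so a call needed a larger change. Car2, Plekhb1, Olig2 and Nfasc had intervals that excluded 0 and were not called by edgeR with all libraries.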
